A study of Mus musculus with 3 samples.

Results

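A set of 8 amino acid transporter genes, out of 32285 genes listed, was followed through translation arrest in mouse embryonic stem cells. They were chosen by symbol: Slc7a1, Slc7a3, Slc7a5, Slc7a11, Slc3a2, Slc38a2, Slc1a4 and Slc1a5, and each symbol had 1 identifier. The cells were E14, an embryonic stem cell line of 129/Ola background, kept in medium with serum and leukemia inhibitory factor. Cycloheximide, which blocks translation elongation, was given at 250 µg/mL in 0.007% ethanol from 24 h after seeding, in 1 culture for 3 h and in another for 6 h, and control cells received ethanol alone for 6 h. All cells were frozen and thawed before droplet capture, with polyadenylated RNA counted by unique molecular identifiers (UMIs) at transcript 3′ ends. Each group had 1 library, so no test between groups was possible, and no ethanol library matched the 3 h exposure.

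Amino acids enter cells through membrane carriers of several families. SLC7A5 (LAT1, for large neutral amino acids such as leucine) and SLC7A11 (xCT, which brings in cystine in exchange for glutamate) are light chains that reach the cell surface bound to the heavy chain SLC3A2, also known as CD98. SLC7A1 and SLC7A3 are carriers of arginine, lysine and other cationic amino acids. SLC38A2 (SNAT2) couples the uptake of small neutral amino acids to sodium, and SLC1A4 and SLC1A5 (ASCT1 and ASCT2) exchange neutral amino acids, glutamine among them for SLC1A5. In many cell types amino acid shortage raises several of these transcripts through the kinase GCN2 and the transcription factor ATF4, which acts at C/EBP-ATF composite sites in gene regulatory regions. In stem cells, which divide fast, these carriers supply protein synthesis, nucleotide synthesis and glutathione, and leucine and arginine uptake feeds the growth kinase complex mTORC1.

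Barcodes with at least 15000 UMIs and 1 to 20% mitochondrial UMIs were kept as cells, which gave 2187 control cells, 1739 cells after 3 h and 2554 cells after 6 h. They held 111447486, 106842407 and 140321458 UMIs, with medians of 43160, 51726 and 46200 UMIs per cell. The mitochondrial share was 4.57%, 3.51% and 2.94%, and 62, 1 and 8 barcodes of sufficient depth were left out for less than 1%. Between 1 and 3 cell barcodes were shared by any 2 libraries and 0 by all of them. All 10 stem cell markers examined were at 10 CPM (UMI counts scaled to the same total in every library) or more in every library, with sums of 7260, 8205 and 7318 CPM. Of 8 fibroblast markers, 0 reached 10 CPM, their sum was 1.38 to 2.58 CPM, and Col3a1, Lum and Postn had 0 UMIs in every library. Sums for 4 trophoblast, 5 mesoderm and 4 Zscan4-type markers were below 7 CPM in each library. Endoderm markers summed to 21.1 to 29.6 CPM over 7 genes, with Lama1 alone above 10 CPM. The 5 neural markers summed to 91.2 CPM in the control, 65.6 CPM after 3 h and 45.6 CPM after 6 h. Tubb3 was above 10 CPM throughout, Sox1 also after 3 h and Nes also after 6 h. The part of neural markers in the results below was not tested.

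Most of the 8 transcripts were lower after cycloheximide, and Slc3a2 was the exception. At 6 h, 7 members lay below the control and 1 above, and 5 were lower by a log2 ratio of at least 0.5, while 0 were higher by as much. At 3 h, 6 lay below the control and 2 above, with 2 past that size, both lower. Among 7608 genes averaging at least 10 CPM over the libraries, 9.69% were lower by that much after 6 h and 26.6% were higher, and after 3 h 3.21% were lower and 17.9% higher. Whatever the size, 64.1% of these genes lay above the control at both times. All but Slc7a11 and Slc1a4 (6 of 8 members) passed the same floor, and of these 3 were lower by at least 0.5 after 6 h and 1 after 3 h. The median log2 ratio of the 8 members was -0.32 after 3 h and -0.86 after 6 h, and over the 6 above the floor -0.32 and -0.61. All genes above the floor had medians of 0.11 and 0.17. Both comparisons use the same control library. With 1 library a group, the 95% intervals given here cover counting error only, and a difference between cultures or library preparations cannot be told apart from the treatment.

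**Figure D1:**
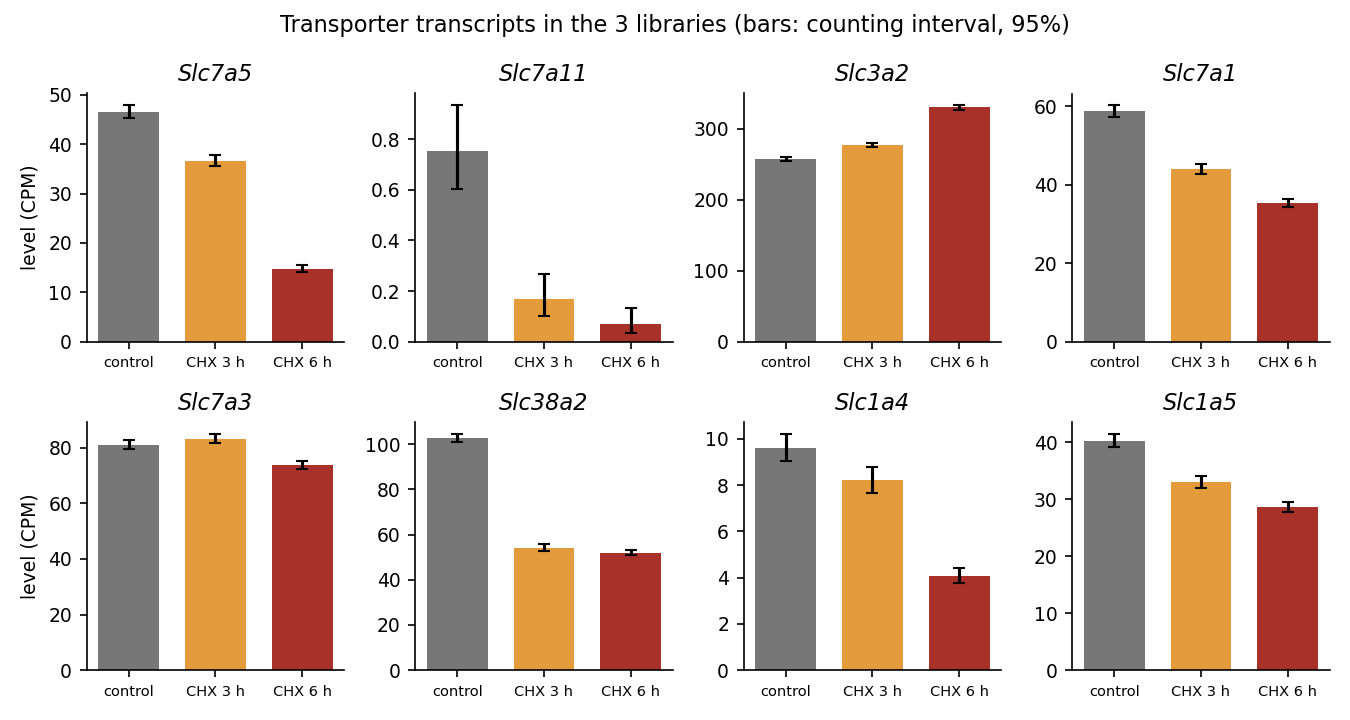
Level of each of the 8 transporter transcripts (vertical axis, CPM, from 0, scaled to each gene) in the control, 3 h cycloheximide (CHX) and 6 h libraries; bars are summed UMIs over the kept cells and whiskers are exact Poisson 95% intervals. Slc3a2 goes from 258 to 330 CPM while Slc7a5 goes from 46.6 to 14.8 CPM.

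The scaling between libraries sets where 0 lies. TMM factors, which balance the bulk of genes in place of the totals, shifted all log2 ratios by -0.17 after 3 h and -0.29 after 6 h, and the medians over all genes became -0.063 and -0.12. Under these factors 42.6% of genes lay above the control after 3 h and 40.5% after 6 h, so how common a sign is depends on the scaling. By UMIs per cell the shift was 0.27 after 3 h and 0.11 after 6 h. For this reason the share of genes with a lower ratio is given as well for the members above the floor, though not in every comparison. Such a shift leaves this share unchanged.

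The leucine carrier and its heavy chain went opposite ways. Slc7a5 (ENSMUSG00000040010, chromosome 8, 121881150 to 121907694, minus strand) had 5194 UMIs or 46.6 CPM in control cells (95% interval 45.3 to 47.9), 3916 UMIs or 36.7 CPM after 3 h (35.5 to 37.8) and 2078 UMIs or 14.8 CPM after 6 h (14.2 to 15.5). The 3 levels stood apart beyond counting error, and the larger step lay between 3 h and 6 h. Its log2 ratio was -0.35 after 3 h (-0.41 to -0.29) and -1.65 after 6 h (-1.73 to -1.58), which is 3.15-fold lower, and -1.31 between 3 h and 6 h (-1.38 to -1.23). At 6 h, 0.710% of all genes above the floor had a lower ratio, against 7.39% after 3 h. In the annotation the gene lies within Gm20388 on the other strand, which the count files do not list.

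Slc3a2 (ENSMUSG00000010095, chromosome 19, 8706882 to 8723369, minus strand) had 28737 UMIs or 258 CPM in control cells (255 to 261), 29614 UMIs or 277 CPM after 3 h (274 to 280) and 46358 UMIs or 330 CPM after 6 h (327 to 333). It was highest after 6 h and lowest in the control, with no overlap of the intervals. Its log2 ratio of 0.36 after 6 h (0.34 to 0.38) was not far from the middle of all genes, since 64.7% of them had a lower ratio, and it was 0.071 under TMM factors. At 3 h the log2 ratio was 0.10 (0.081 to 0.13), and it turned to -0.070 under TMM factors. Between 3 h and 6 h it was 0.25 (0.23 to 0.27), above 82.1% of genes.

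A ratio of both partners within a library does not depend on scaling between libraries. For every 100 Slc3a2 UMIs there were 18.1 Slc7a5 UMIs in the control, 13.2 after 3 h and 4.48 after 6 h. The log2 change of this ratio was -0.45 after 3 h (-0.52 to -0.39), -2.01 after 6 h (-2.09 to -1.94) and -1.56 from 3 h to 6 h (-1.64 to -1.48). Slc7a5 was thus lower relative to its partner at both times, and the larger part of the change lay between 3 h and 6 h. Slc3a2 gave 43.1% of the UMIs of the 8 members in the control, 51.7% after 3 h and 61.3% after 6 h, where 3′ counting takes 1 tag per captured molecule and applies no scaling for length. The summed level of the 8 was 598, 537 and 539 CPM, and without Slc3a2 it was 340, 259 and 209 CPM. Without Slc3a2 the sum had a log2 ratio of -0.39 after 3 h (-0.41 to -0.37) and -0.70 after 6 h (-0.73 to -0.68).

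The cystine carrier had the lowest ratios of the 8 against the control and the fewest molecules. Slc7a11 (ENSMUSG00000027737, chromosome 3, 49892526 to 50443614, minus strand) had 84 UMIs or 0.754 CPM in control cells (0.601 to 0.933), 18 UMIs or 0.168 CPM after 3 h (0.0998 to 0.266) and 10 UMIs or 0.0713 CPM after 6 h (0.0342 to 0.131). The control stood apart from both treated libraries, whose intervals overlapped. The log2 ratio was -2.13 after 3 h (-2.98 to -1.41) and -3.34 after 6 h (-4.51 to -2.45). From 3 h to 6 h it was -1.21 (-2.52 to -0.049), an interval that reaches close to 0. A UMI of the gene was seen in 3.43% of control cells, 1.04% of cells after 3 h and 0.352% after 6 h, so these values describe a few molecules in few cells.

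Its promoter holds 2 copies of the C/EBP-ATF composite letters, and both are shown since ATF4 is a known activator of this gene. The search covered TGATGNAA on both strands, over 250 bases before to 50 after each RefSeq start on GRCm38.p6, and windows were found for 5 of the 8 members, so Slc7a3, Slc7a5 and Slc1a5 were not searched. The other searched member whose promoter held it was Slc1a4. Capitals mark the match, in the direction of the gene, with 10 bases on each side.
Slc7a11, 66 bases before the start, chr3:50443662-50443689, minus strand: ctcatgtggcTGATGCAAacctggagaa
Slc7a11, 47 bases before the start, chr3:50443643-50443670, minus strand: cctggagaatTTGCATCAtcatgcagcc
Slc1a4, 4 bases before the start and running over it, chr11:20332700-20332727, minus strand: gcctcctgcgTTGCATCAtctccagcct
The letters were absent from the windows of Slc7a1 (2 starts), Slc3a2 and Slc38a2. The Slc3a2 window covered 8713848 to 8714147 on chromosome 19, so the annotated 5′ end of this gene at 8723369 was not searched. Introns and other sequence outside the windows were not searched for any gene. Of 27025 genes with such windows 4.51% held the letters, and 2.37% of those above the 10 CPM floor. The letters TGACNNNGC, the core bound by the antioxidant factor NRF2, occurred once each in the windows of Slc7a1 and Slc38a2, and 14.0% of genes held them.

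Slc1a4, like Slc7a11, was low in number and below the control after 6 h. It (ENSMUSG00000020142, chromosome 11, 20302180 to 20332713, minus strand) carries alanine, serine and cysteine. The control held 1072 UMIs or 9.62 CPM (9.05 to 10.2), with 877 UMIs or 8.21 CPM after 3 h (7.67 to 8.77) and 573 UMIs or 4.08 CPM after 6 h (3.76 to 4.43). The 6 h level lay well under both others. Its log2 ratio was -0.23 after 3 h (-0.36 to -0.099), which turned to 0.041 by UMIs per cell, and -1.24 after 6 h (-1.38 to -1.09). From 3 h to 6 h it was -1.01 (-1.16 to -0.85), so the 3 h level was the nearer to the control, as for Slc7a5.

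Slc1a5 (ENSMUSG00000001918, chromosome 7, 16781340 to 16798274, plus strand), the glutamine exchanger, had 40.3 CPM in the control (39.1 to 41.5), 33.0 CPM after 3 h (31.9 to 34.1) and 28.6 CPM after 6 h (27.7 to 29.5). The levels were ordered control, 3 h, 6 h without overlap. Its log2 ratio was -0.29 (-0.35 to -0.22) after 3 h, beside -0.23 for Slc1a4. After 6 h it was -0.49 (-0.55 to -0.43), smaller in size than the -1.24 of Slc1a4. In both comparisons close to 10% of genes had a lower ratio (9.95% and 9.83%). By UMIs per cell the 3 h ratio was -0.018.

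**Figure D2:**
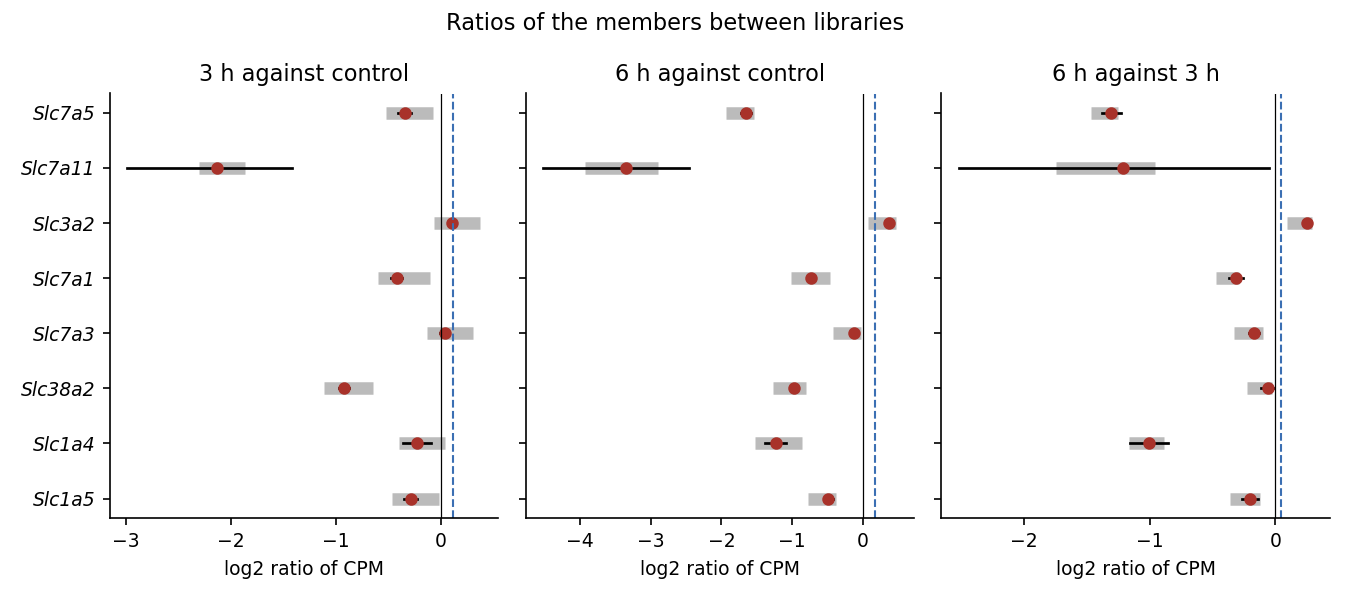
Log2 ratio of CPM (horizontal axis) of each member in the 3 comparisons between libraries; red points are the values, black lines the exact binomial 95% counting intervals, grey bars the range over other scalings, cell filters and, for all but Slc7a11, bands of UMI depth, and the dashed blue line the median of all genes above 10 CPM. Slc7a5 and Slc1a4 lie below -0.9 in the comparison of 6 h with 3 h, whereas Slc38a2 lies at -0.062.

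Slc38a2 differed from Slc7a5 in its timing. The gene (ENSMUSG00000022462, chromosome 15, 96687392 to 96699730, minus strand) had 11443 UMIs or 103 CPM in control cells (101 to 105), 5797 UMIs or 54.3 CPM after 3 h (52.9 to 55.7) and 7292 UMIs or 52.0 CPM after 6 h (50.8 to 53.2). Both treated libraries were near one another and far below the control. The log2 ratio was -0.92 after 3 h (-0.97 to -0.87), with 0.657% of genes lower, and -0.98 after 6 h (-1.03 to -0.94), with 2.47% of genes lower. Between 3 h and 6 h it was only -0.062 (-0.11 to -0.012). Of the members above the floor, Slc38a2 was the one past 0.5 after 3 h.

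The cationic carriers Slc7a1 and Slc7a3 behaved unlike one another. Slc7a1 (ENSMUSG00000041313, chromosome 5, 148327410 to 148399904, minus strand), which encodes the widespread arginine carrier CAT-1, had 58.8 CPM in the control (57.3 to 60.2), 43.9 CPM after 3 h (42.6 to 45.1) and 35.3 CPM after 6 h (34.3 to 36.3). Its levels were ordered control, 3 h, 6 h without overlap. Its log2 ratio was -0.42 after 3 h (-0.48 to -0.37) and -0.74 after 6 h (-0.79 to -0.68), with 4.88% and 4.84% of genes lower. Slc7a3 (ENSMUSG00000031297, chromosome X, 101079210 to 101086020, minus strand), which encodes CAT-3, had 81.1 CPM in the control (79.4 to 82.8), 83.2 CPM after 3 h (81.5 to 85.0) and 73.8 CPM after 6 h (72.4 to 75.3). The control and 3 h intervals overlapped and the 6 h level was the lowest. Its log2 ratio was 0.038 after 3 h (-0.0049 to 0.080), turned to -0.14 under TMM factors, and was -0.13 after 6 h (-0.18 to -0.094), with 26.2% of genes lower. By UMIs per cell or with free RNA subtracted the 6 h value was near 0, at -0.026 and -0.027.

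From 3 h to 6 h, 3 members were lower by at least 0.5, namely Slc7a5, Slc7a11 and Slc1a4, and 0 were higher by as much. Among all genes above the floor 3.68% were lower and 3.23% higher by this size. Of the 6 members above the floor, Slc7a5 alone passed it.

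**Figure D3:**
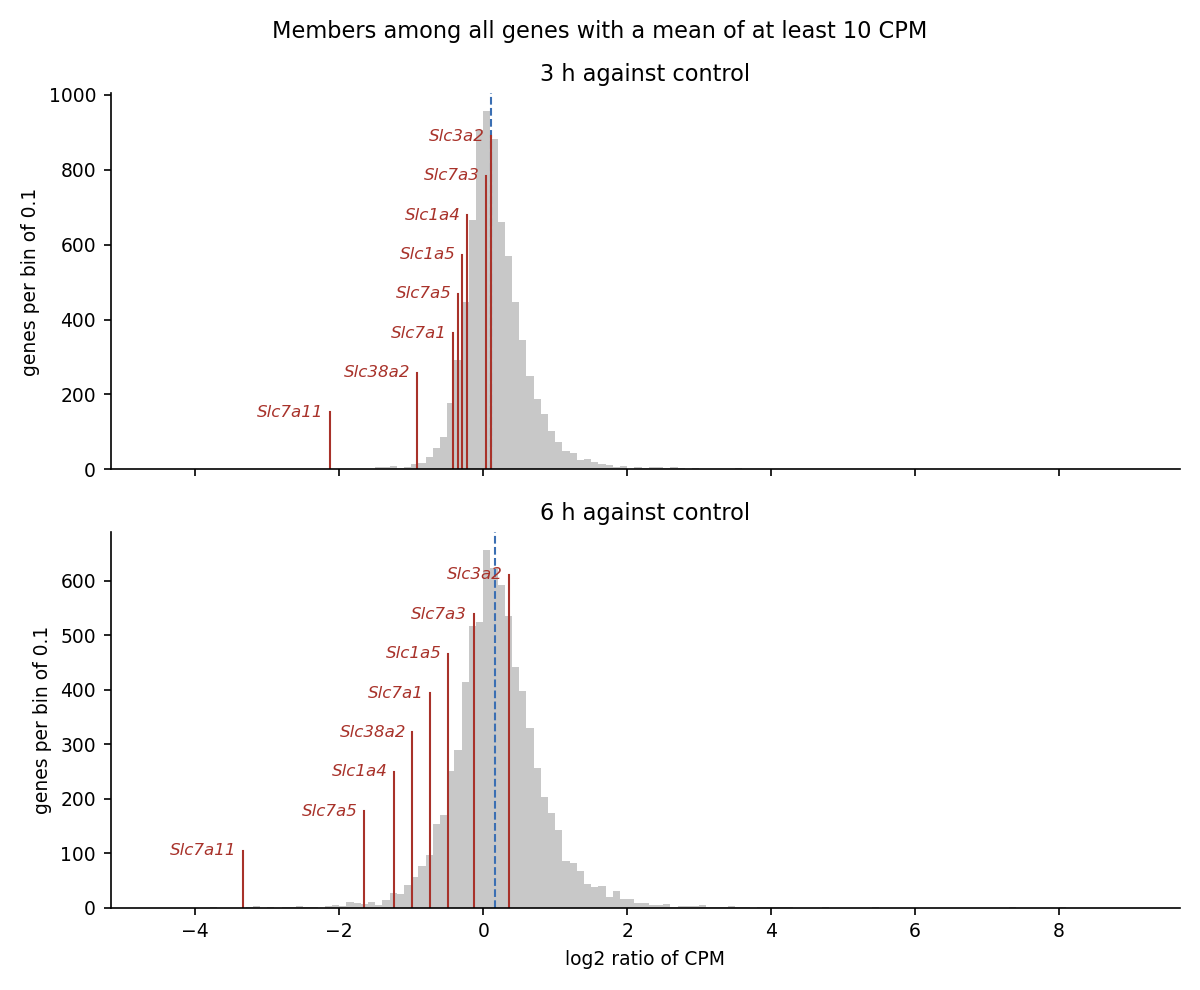
Number of genes (vertical axis, bins of 0.1) by log2 ratio of CPM (horizontal axis) after 3 h and after 6 h against the control, for 7608 genes averaging at least 10 CPM; red lines mark the 8 members, line heights carry no value, and the dashed blue line is the median of all genes. All members but Slc3a2 (7 of 8) lie left of the dashed line at both times, with Slc3a2 at 0.10 beside a median of 0.11 after 3 h and at 0.36 right of it after 6 h.

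Single cells were compared after thinning each to 15000 UMIs. This sets all cells to the same total, so the thinned values depend on scaling as CPM does. Slc3a2 had a mean of 3.88 UMIs per cell in the control, 4.18 after 3 h and 4.87 after 6 h, and the median went from 4 to 5 UMIs between the control and 6 h. A Slc3a2 UMI was found in 96.1% of control cells (exact binomial 95% interval 95.2 to 96.9), 97.6% after 3 h (96.8 to 98.3) and 98.6% after 6 h (98.05 to 99.01). At this equal total the whole distribution of Slc3a2 lay higher after 6 h, and few cells lacked it. Its 6 h log2 ratio over summed cells was 0.071 under TMM factors. Slc7a5 had a UMI in 48.6% of control cells (46.5 to 50.7), 42.4% after 3 h (40.04 to 44.7) and 19.2% after 6 h (17.7 to 20.8). Before thinning these shares were 81.8%, 80.2% and 50.1%.

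Slc38a2 was found in 76.3% of control cells (74.5 to 78.1), 53.5% after 3 h (51.2 to 55.9) and 53.3% after 6 h (51.3 to 55.2), against 96.1%, 89.3% and 86.2% before thinning. The share repeats the order of its CPM, with both treated libraries alike within counting error. Slc7a1 was found in 53.9%, 44.9% and 41.7% of cells, Slc7a3 in 66.8%, 67.6% and 62.0%, Slc1a5 in 41.8%, 41.0% and 33.7%, and Slc1a4 in 12.9%, 11.9% and 6.26%. Before thinning they were 83.4%, 82.9% and 75.1% for Slc7a1, 93.3%, 94.6% and 91.3% for Slc7a3, 78.9%, 78.6% and 71.3% for Slc1a5, and 34.7%, 35.8% and 19.0% for Slc1a4. For Slc7a11 the thinned shares were 1.28%, 0.288% and 0.0392%.

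Free RNA in droplets can give a cell UMIs it did not make. The cells were not sorted into types, and no cell type lacking these genes was identified. Barcodes of 10 to 100 UMIs were therefore used to read the free RNA, whose levels moved with the cells for most members. Slc7a5 had 70.3, 48.4 and 21.9 CPM there, Slc3a2 191, 230 and 260 CPM, and Slc38a2 114, 61.7 and 54.1 CPM. Subtracting a 10% share of free RNA left the log2 ratio of every member in the 3 comparisons on the same side of 0.

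**Figure D4:**
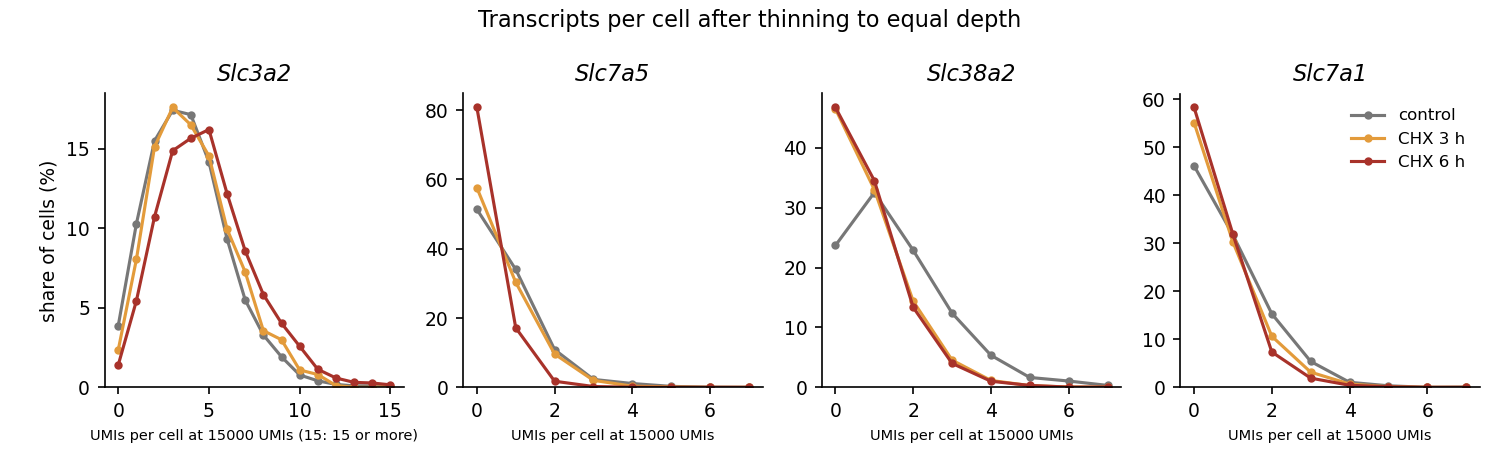
Share of cells (vertical axis, %) by the number of UMIs of 4 members (horizontal axis) after each cell was thinned to 15000 UMIs, in the control (grey), 3 h (orange) and 6 h (red) libraries. The 6 h line of Slc7a5 starts at 80.8% of cells with 0 UMIs, whereas for Slc38a2 the 3 h and 6 h lines lie together.

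Depth of the cells was examined by splitting each library into a low, a middle and a high band of UMIs per cell, with equal numbers of cells. For Slc7a5 the 6 h ratio was -1.70 in the low band, -1.68 in the middle and -1.63 in the high band. Slc3a2 gave 0.33, 0.34 and 0.38, and Slc38a2 -0.80, -1.14 and -0.97. Slc7a1 gave -0.47, -0.78 and -0.80, and Slc1a4 -0.86, -1.35 and -1.30. The direction after 6 h was the same in each band for these genes, as it was for Slc1a5 and Slc7a3. At 3 h Slc1a4 was at 0.027 in the low band and at -0.31 and -0.27 in the others, and Slc7a3 was at 0.11, -0.026 and 0.043. Slc7a11 had too few UMIs for a ratio by band. From the low to the high band it had 16, 28 and 40 UMIs in the control, 3, 6 and 9 after 3 h, and 1, 0 and 9 after 6 h, so its 6 h level rests mostly on the cells with the most UMIs.

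Among genes averaging at least 20 CPM, the nearest by both ratios against the control were sought for each member over the 3 libraries. Slc7a5 had 0 genes within a distance of 0.1 on the log2 scale, and its nearest were Epop (-0.50 after 3 h and -1.71 after 6 h), Erf (-0.42 and -1.81) and Ahdc1 (-0.55 and -1.51). Slc1a4 was nearest to Zfp36l1 (-0.20 and -1.24), Etv5 (-0.20 and -1.23) and Krt17 (-0.24 and -1.32). Slc38a2 had 3 genes within 0.1, among them Rpl29 and D5Ertd579e. Slc7a11 had 0 within 0.1, its nearest being Zfp296, Gbx2 and Kpna2 at distances of 0.52 to 0.81. The remaining members lay in denser regions, with 68 genes within 0.1 for Slc7a1 (nearest Mapkapk3, Riox2 and Ppp1r9a), 154 for Slc1a5 (Hnrnpd, Anapc5 and 4833439L19Rik), 234 for Slc7a3 (Dck, Dgcr2 and Nat10) and 308 for Slc3a2 (Cops9, Ift27 and Nutf2-ps1).

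The other amino acid carriers of the plasma membrane spread both ways. Of 38 listed, 7 passed the floor of 10 CPM, and after 6 h 2 of these were lower and 2 higher by at least 0.5, with a median of 0.20. Over all genes above the floor 9.69% were lower and 26.6% higher by this size. The taurine carrier Slc6a6 had 71.4, 44.4 and 34.1 CPM, a log2 ratio of -1.07 after 6 h. Slc7a7, another light chain partner of Slc3a2, had 69.0, 59.8 and 46.8 CPM (-0.56). Slc7a6, likewise a light chain, had 16.3, 22.2 and 25.2 CPM (0.62), so light chains of the same heavy chain stood on both sides of the control. Slc43a2, a carrier of large neutral amino acids as Slc7a5 is, had 5.88, 12.8 and 19.7 CPM (1.75).

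Carriers of inner membranes also differed among themselves. Of 12 genes listed as lysosomal or endosomal, 4 passed the floor. The list also holds Slc29a3, a nucleoside carrier, and Slc38a10 and Slc38a6, whose location is not settled. Slc15a4, which moves histidine and peptides, had 8.30, 33.0 and 42.9 CPM, a log2 ratio of 2.37 after 6 h. Slc38a7, a lysosomal carrier of glutamine and asparagine, had 20.05, 16.3 and 9.82 CPM (-1.03) and Slc38a10 24.2, 15.8 and 10.2 CPM (-1.25), while Slc38a9, a lysosomal arginine sensor, was at 9.84, 10.2 and 10.996 CPM (0.16, and -0.13 under TMM factors). Of 12 mitochondrial carriers, 5 passed the floor. Over all genes above the floor 26.6% were higher by at least 0.5 after 6 h, and 2 of these carriers were. These were Slc25a38, a glycine carrier, at 1.29 and Slc25a44, a carrier of branched-chain amino acids, at 1.19. Slc25a12 and Slc25a13, the aspartate and glutamate exchangers, were at -0.013 and -0.11, and by UMIs per cell the former was at 0.096.

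Transcripts of amino acid sensing were mostly near or above the control. Of 35 listed genes 24 passed the floor, and after 6 h 5 were higher and 1 lower by at least 0.5, with a median of 0.17 beside 0.17 for all genes. Over all genes above the floor 26.6% were higher and 9.69% lower by this size. Sesn2, a leucine sensor of mTORC1 control and an ATF4 target, was the one lower, with 49.6, 29.4 and 28.3 CPM and a log2 ratio of -0.81. Its drop came by 3 h, as that of Slc38a2 did. Sesn3 (1.07) and Nprl3 (1.34), which both act to restrain mTORC1, were the highest. Mtor itself was at -0.046, and at 0.062 by UMIs per cell, and Lars, the leucyl-tRNA synthetase, at -0.26.

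In the ATF4 list, the factors Atf4, Ddit3, Cebpg and Atf3 were above the control, while the factors Atf5 and Cebpb and several listed targets were below. Of 25 listed genes 21 passed the floor, and after 6 h 8 were lower and 2 higher by at least 0.5, with a median of -0.26. Over all genes above the floor 9.69% were lower and 26.6% higher by this size. Atf4 had 242, 471 and 509 CPM, log2 ratios of 0.96 and 1.07. Ddit3, which encodes the stress factor CHOP, had 13.4, 28.1 and 29.9 CPM (1.06 and 1.15) at the identifier that carried counts. It stood outside the counts of the list because 2 identifiers share its symbol. Atf5 had 36.3, 26.6 and 25.1 CPM (-0.45 and -0.53), and Cebpb, under the floor, was at -0.51 and -0.27. Chac1, which breaks down glutathione, had 22.6, 6.79 and 2.58 CPM (-1.74 and -3.13), and Trib3, an ATF4 inhibitor, had 46.9, 19.3 and 10.9 CPM (-1.28 and -2.10). Asns, asparagine synthetase, stayed at 293, 298 and 301 CPM (0.025 and 0.041, and -0.15 and -0.25 under TMM factors). Cth, which makes cysteine from cystathionine, was at 0.41 and 0.59, and the kinase gene Eif2ak4 (GCN2) was at -0.077 and -0.11, the 3 h and 6 h values being 0.19 and -0.0062 by UMIs per cell.

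The promoters of this list were searched in the same way. Of 23 genes of the list with a promoter window, 7 held TGATGNAA. Over all genes with such windows 4.51% held it, and 2.37% of those above the floor. The list was itself chosen as GCN2, ATF4 and known ATF4 targets. The 6 h ratios of the 7 genes holding the letters ran from -3.13 for Chac1 to 0.36 for Atf3, which lay under the floor, with Asns at 0.041. Sites of genes at opposite ends are shown beside those of Slc7a11 and Slc1a4 above.
Chac1, 193 bases before the start, chr2:119351039-119351066, plus strand: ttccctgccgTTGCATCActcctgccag
Asns, 23 bases before the start, chr6:7693215-7693242, minus strand: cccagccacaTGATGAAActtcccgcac
Atf3, 110 bases before the start, chr1:191183426-191183453, minus strand: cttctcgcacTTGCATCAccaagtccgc
A match is a description of letters and shows no binding. Absence from these windows does not show that a gene lacks a site elsewhere or is not controlled by ATF4.

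Enzymes that use the carried amino acids were close to the control for the most part. Of 24 listed genes 21 passed the floor, and after 6 h 3 were lower and 1 higher by at least 0.5, with a median of -0.11. Over all genes above the floor 9.69% were lower and 26.6% higher by this size. Gclc and Gclm, the subunits of the enzyme that starts glutathione synthesis from cysteine and glutamate, had log2 ratios of -0.81 and -0.65, and were at -0.61 and -0.46 after 3 h. Shmt1, which handles serine and glycine in the cytosol, was lowest, with 73.6, 38.98 and 23.7 CPM (-1.64). Asl, of arginine synthesis, was at 0.54, and Gls2 was at 0.42.

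Carriers of fuel other than amino acids gave no uniform picture either. Of 8 genes for glucose and monocarboxylate transport 5 passed the floor, 2 lower and 1 higher by at least 0.5 after 6 h. Over all genes above the floor 9.69% were lower and 26.6% higher by this size. The glucose carrier Slc2a1 had 108, 94.6 and 53.6 CPM (-1.01), with most of the difference arising between 3 h and 6 h, as for Slc7a5. Slc2a3 was at -0.077 (0.031 by UMIs per cell), the lactate carrier Slc16a1 at -0.66, and Slc2a8 at 1.26.

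**Figure D5:**
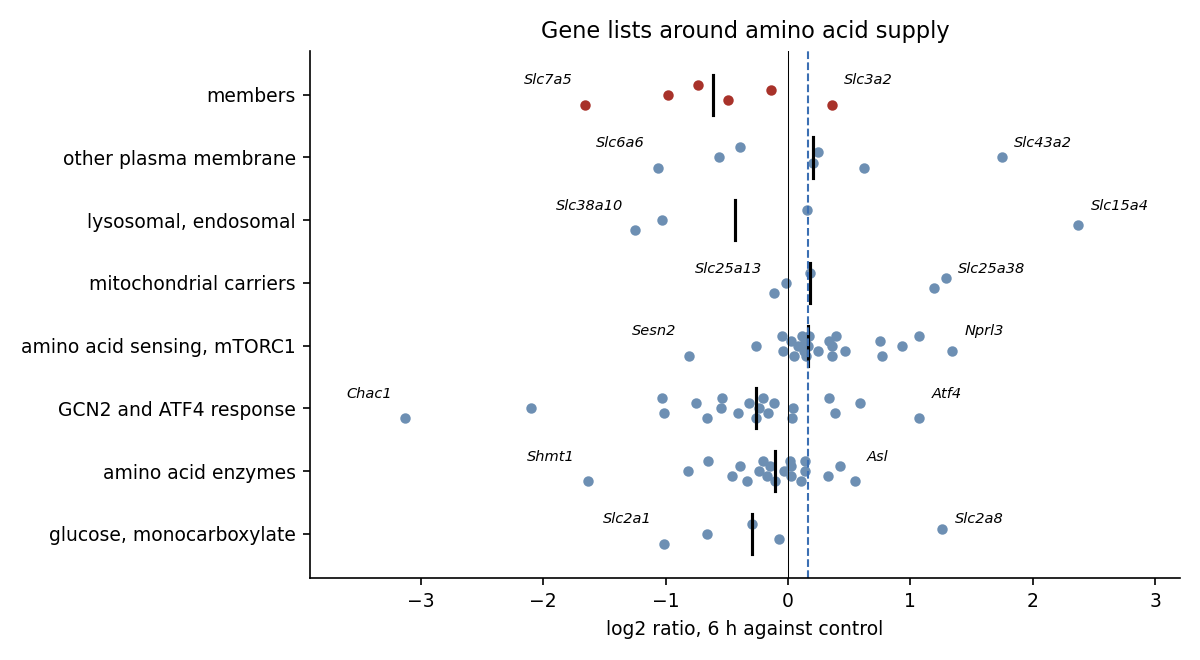
Log2 ratio of CPM after 6 h against the control (horizontal axis) for genes of 8 lists averaging at least 10 CPM; each point is a gene, black bars are list medians, vertical offsets within a list carry no value, the dashed blue line is the median of all genes, and the lowest and highest gene of each list are named. Members have a median of -0.61 over 6 genes, and the ATF4 response reaches from -3.13 for Chac1 to 1.07 for Atf4.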

How the data were processed

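Per the file headers, the deposited matrices hold raw UMI counts written by Cell Ranger 4, for 6794880 barcodes a library. The authors used Cell Ranger 4.0.0 and genome build mm10, per the submitters' processing notes. The annotation is not given in the sources used here. Gene positions are those of GENCODE M21 (GRCm38, the assembly behind mm10), to which 32235 of 32285 identifiers matched.

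Counts were summed over kept barcodes and given as CPM with exact Poisson intervals. Log2 ratios used a prior of 0.5 counts and exact conditional binomial intervals, and partner ratios a normal interval of the log odds. No test between groups was made, with 1 library each. Thinning drew UMIs without replacement. Doublets were not removed. The members and gene lists were chosen with earlier results of these data known. All 8 members are described. From each other list the 2 highest and 2 lowest ratios at 6 h above 10 CPM were named, plus a few fixed genes and the 3 nearest genes of each member. A few others were named after their values were seen (Atf3 for its promoter and as a factor, Atf5, Cebpb and Cebpg, and Slc7a7 and Slc7a6 also as light chains). Ratios and intervals were tested on simulated counts. Alternatives were TMM factors (edgeR 4.0.16, R 4.3.3), UMIs per cell, a prior of 5, minimums of 2000 and 30000 UMIs, no cells above 2 times the median UMIs, other mitochondrial limits, free RNA subtraction and other floors. Python 3.11.15, numpy 2.4.6 and scipy 1.17.1 were used. Some genes that the naming rule selects are not reported here.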

Additional observations from a re-analysis of the deposited data

How the results depend on the processing

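No paired analysis was possible because each group had 1 library. The median log2 ratio of the 8 members stayed below 0 under all 9 alternatives in the 3 comparisons. Under TMM factors it was -0.49 at 3 h, -1.15 at 6 h and -0.37 from 3 h to 6 h, by UMIs per cell -0.048, -0.75 and -0.42, and without mitochondrial limits -0.80 at 6 h. The count of members lower by at least 0.5 at 3 h was 4 under TMM factors. At 6 h this count was 6 under TMM factors and with at least 30000 UMIs per cell. With a size of 1 the count was 1 at 3 h and 3 at 6 h. The share of all genes past the same size is not given for these settings, so these counts have no background beside them. Among single members, Slc3a2 at 3 h turned to -0.070 under TMM factors, and Slc1a4 at 3 h to 0.041 by UMIs per cell and to 0.027 in the low band of UMIs per cell, a split chosen after seeing the data. Slc7a3 at 3 h, whose counting interval held 0, went from 0.038 to -0.14 under TMM factors and to -0.026 in the middle band. The medians of the other lists were less stable. By UMIs per cell the 3 h medians turned to 0.14 for lysosomal carriers, 0.18 for the ATF4 response, 0.23 for the enzymes and 0.10 for glucose and monocarboxylate carriers. With every gene that had a UMI in each library, the 3 h medians of the lysosomal and the glucose and monocarboxylate carriers were 0.073 and 0.057, the 6 h median of mitochondrial carriers -0.018 and the 6 h to 3 h median of lysosomal carriers 0.018. Under TMM factors the 6 h medians turned to -0.083 for other plasma membrane carriers, -0.11 for mitochondrial carriers and -0.12 for amino acid sensing. With a floor of 50 CPM other plasma membrane carriers were at -0.39 at 6 h and -0.11 from 3 h to 6 h. Amino acid sensing from 3 h to 6 h was -0.033 under TMM factors and -0.082 by UMIs per cell. Scalings shift every gene alike, and the other causes were not tested. Depth limits Slc7a11, with 10 UMIs at 6 h.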

Other observations

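For 2 members the counting intervals of the ratio in free RNA and in cells did not overlap. In barcodes of 10 to 100 UMIs Slc7a3, the cationic carrier that was near the control in cells, had 402 UMIs in the control, 321 after 3 h and 210 after 6 h. Its log2 ratio there was -1.06 after 6 h (-1.31 to -0.82), beside -0.13 in cells. Slc1a5 had 195, 96 and 99 free UMIs, a log2 ratio of -0.90 after 3 h (-1.27 to -0.54) beside -0.29 in cells. After 6 h it was -1.10 (-1.47 to -0.75) beside -0.49 in cells. For Slc3a2 after 3 h the free value was 0.27 (0.12 to 0.42) beside 0.10 in cells (0.081 to 0.13), intervals that just met. For Slc7a5 both agree within counting error, at -1.68 (-2.05 to -1.32) in free RNA and -1.65 in cells after 6 h.

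Variation between cells was read as the excess squared coefficient of variation, which is the variance beyond the Poisson part, divided by the mean squared, at 15000 UMIs. For Slc7a3 it was 0.150 in the control, 0.191 after 3 h and 0.231 after 6 h, and without cells above 2 times the median UMIs 0.161, 0.219 and 0.236. For Slc1a5 it was 0.167, 0.123 and 0.0440, and 0.165, 0.171 and 0.0621 without those cells. For Slc3a2 it was 0.0817, 0.0643 and 0.0709. No error was estimated for these values. Pearson's r between the thinned counts of any 2 members ran from -0.03 to 0.10 over the 28 member pairs of each library, so weak in sparse counts that no link between members is read from it.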
